A study of Drosophila melanogaster with 3 samples.

Results

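The genes described here are the 33 protein-coding genes of the fly whose symbol starts with Vha, out of 13945 coding genes on the 6 chromosome arms, and nearly all encode subunits of the vacuolar ATPase. They were taken by symbol from the Ensembl annotation of build dm6, and no measured value enters that rule. The rule itself was chosen with earlier results of these data known. Binding was measured by ChIP-seq in wandering Drosophila melanogaster larvae of the third instar, whole animals with males and females pooled. The transgenic line, strain 15T-GFP, carries h with GFP fused to its C terminus, and the antibody was against GFP. There is 1 group of 3 biological replicates and no second condition, so every comparison below is between genes. Data of the control were not analysed here, so signal unrelated to the fusion cannot be told apart from its binding. Whole larvae mix all tissues, and binding in a small share of cells may go uncalled.

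The vacuolar ATPase is a rotary proton pump that acidifies lysosomes, endosomes and secretory vesicles, and in insect epithelia such as the Malpighian tubule it also energises the plasma membrane. Its peripheral V1 sector hydrolyses ATP with subunits A to H, and its membrane sector Vo moves protons with subunits a, c, c'', d and e. In flies many subunits have several genes, and commonly a single gene of a family is used widely while its paralogs are used in particular tissues, the testis among them. Hairy, the product of h (named hry in the annotation), belongs to the HES family of bHLH repressors and recruits Groucho and other corepressors. The related bHLH factor Mitf, the fly ortholog of mammalian TFEB, activates vacuolar ATPase genes through sites built around the E-box CACGTG.

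A gene was counted as bound if a summit of the authors' reproducible peak list lay between 1 kb upstream of the gene and its end. That list holds 10233 peaks that passed the irreproducible discovery rate procedure, which keeps peaks whose ranks recur between replicates. First genes are those whose symbol is numbered 1 or lettered a, or has no suffix, and the other symbols are later paralogs. By this rule VhaAC45RP, which has no suffix, counts among the first genes. The signal value is the authors' own score per peak, without a stated scale, and it ranks peaks within a list. Replicate ranks come from each replicate's list of 30000 peaks, where 1 is the strongest, and the 10233 strongest peaks of a replicate are its top list.

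The sequences that bear on the results are shown from the dm6 genome (RefSeq assembly of Release 6), 5' to 3' on the strand of the gene. Capitals mark matches, on either strand, to the searched motifs CACGTG (class B E-box), TCACGTGA (a site of the kind bound by Mitf and TFEB), CACGCG (class C site, bound by Hairy in vitro), CAGCTG (class A E-box), ACACTG, TATCGATA (the DRE, bound by DREF and BEAF-32) and GGTCACAC (Ohler 1, bound by M1BP). TCACGTGA contains CACGTG, and ACACTG can overlap the end of GGTCACAC. The first set is the DNA just upstream of the start site at Vha100-2, Vha55 and Vha68-1, the 3 bound genes of highest signal value among those on 2L, 3L, 3R and X, with that of Vha68-3, an unbound paralog of Vha68-1. The Vha100-2 window lies between its inner start site and that of Vti1b, and ends where the 5' UTR of Vti1b begins.
Vha100-2 (chr3R:18396929-18396994, minus strand, bound): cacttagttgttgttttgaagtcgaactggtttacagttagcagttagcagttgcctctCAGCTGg
Vha55 (chr3R:12627830-12627949, minus strand, bound): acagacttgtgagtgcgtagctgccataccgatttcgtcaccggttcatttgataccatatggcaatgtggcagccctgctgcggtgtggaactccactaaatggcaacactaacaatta
Vha68-1 (chr2L:13004108-13004227, minus strand, bound, summit at base 13): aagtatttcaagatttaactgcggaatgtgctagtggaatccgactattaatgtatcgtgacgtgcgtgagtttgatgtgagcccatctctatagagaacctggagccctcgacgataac
Vha68-3 (chr2L:12978666-12978785, plus strand, not bound): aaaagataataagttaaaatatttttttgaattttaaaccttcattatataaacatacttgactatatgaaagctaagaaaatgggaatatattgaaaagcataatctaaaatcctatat

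The second set shows 30 bases at motifs near members' start sites, and was chosen after the binding calls were known. It holds the class C and class B sites of Vha55, the ACACTG matches of Vha13 and VhaM9.7-c beside their summits, the Ohler 1 sites of 2 genes without a reproducible summit and of the weakly bound Vha68-2, a DRE in a bound and in an unbound gene, and the TCACGTGA of Vha68-2.
Vha55, class C and class B (chr3R:12627767-12627796, minus strand): aCGCGTGacgggtcatgtgacggCACGTGa
Vha55, DRE (chr3R:12628000-12628029, minus strand): gcttccaaattTATCGATAacatacggcga
VhaSFD, DRE (chr2L:16727831-16727860, minus strand): tctgctcgtcaTATCGATAttcttatatat
Vha13, ACACTG (chr3R:19644435-19644464, minus strand): cagctttccggcACACTGcttacccacacc
VhaM9.7-c, ACACTG (chr3L:4186901-4186930, minus strand): gacCAGTGTtgaaagtgattCAGTGTgtta
Vha26, Ohler 1 (chr3R:5591750-5591779, plus strand): cgcaatcgcagGGTCACACtttcgtgaaat
Vha100-1, Ohler 1 (chr3R:29131180-29131209, plus strand): tgacctgccacGGTCACACtagattcatag
Vha68-2, Ohler 1 and ACACTG (chr2L:12974148-12974177, plus strand): tctttaagcCAGTGTGACCccacccgctct
Vha68-2, TCACGTGA (chr2L:12975292-12975321, plus strand): tcaaagctctgTCACGTGAaacgaaagctc

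Of the 33 Vha genes, 13 were bound, or 39.4%, against 36.7% of all coding genes. The share over the whole family was therefore close to the background. Among coding genes of the members' own length classes (deciles of gene length) 32.7% were bound. The top lists of replicates 1, 2 and 3 gave 14, 14 and 11 bound Vha genes, a mean of 39.4% ± 5.25 (SD, n = 3), against 38.3%, 37.7% and 36.8% of coding genes in the same lists. Length-matched genes had a mean of 33.7% ± 0.72 (SD, n = 3) in these lists. The difference from them was about the size of the spread between replicates: replicate 3 gave 33.3% for Vha genes and 32.9% for matched genes. That spread comes from calls on the same 33 genes, so it does not measure variation between genes. Each of the 13 bound genes had a summit within 500 bp of an annotated start site of its own. This share was 39.4%, against 29.8% of all coding genes and 27.5% of length-matched ones. Promoter shares in the top lists of replicates 1, 2 and 3 were 39.4%, 42.4% and 33.3%, against 31.5%, 30.6% and 29.8% of coding genes. With nearest coding start sites alone, or with peaks in all 3 top lists, 9 Vha genes were bound at a promoter. Shares of all coding genes under those 2 rules are not given.

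First genes were bound more often than later paralogs. Of 15 first genes 9 were bound, or 60%, and of 18 later paralogs 4, or 22.2%, a difference of 37.8 percentage points. Replicates 1, 2 and 3 gave differences of 20, 44.4 and 36.7 points, a mean of 33.7 ± 12.5 (SD, n = 3), positive in 3 of 3. First genes had 57.8% ± 7.70 bound in the top lists and later paralogs 24.1% ± 8.49 (SD, n = 3 each), and the lowest replicate share for first genes, 53.3%, lay above the highest for later paralogs, 33.3%. These SDs describe calls on the same genes in 3 lists and do not measure variation between genes. Genes of 1 family share ancestry and are not replicates, and 1 group of samples allows no contrast, so no test was made.

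First genes also differed from later paralogs in length and in what lies upstream. Their median length was 2220 bp, against 1362.5 bp for later paralogs, and length-matched coding genes were bound at 38.1% and 28.3%, so length classes alone differed by 9.87 points. A coding start site on the opposite strand within 1 kb upstream stood at 10 of the 15 first genes and 4 of the 18 later paralogs. Among all coding genes, 51.8% of the 5052 with such a divergent neighbour were bound, and 28.2% of the 8893 without. With length class and a divergent neighbour both matched, coding genes alike to the first genes were bound at 44.6% and those alike to the later paralogs at 25.1%. Within the Vha genes that have a divergent neighbour, 7 of 10 first genes and 1 of 4 later paralogs were bound, and among the rest 2 of 5 and 3 of 14.

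**Figure D1:**
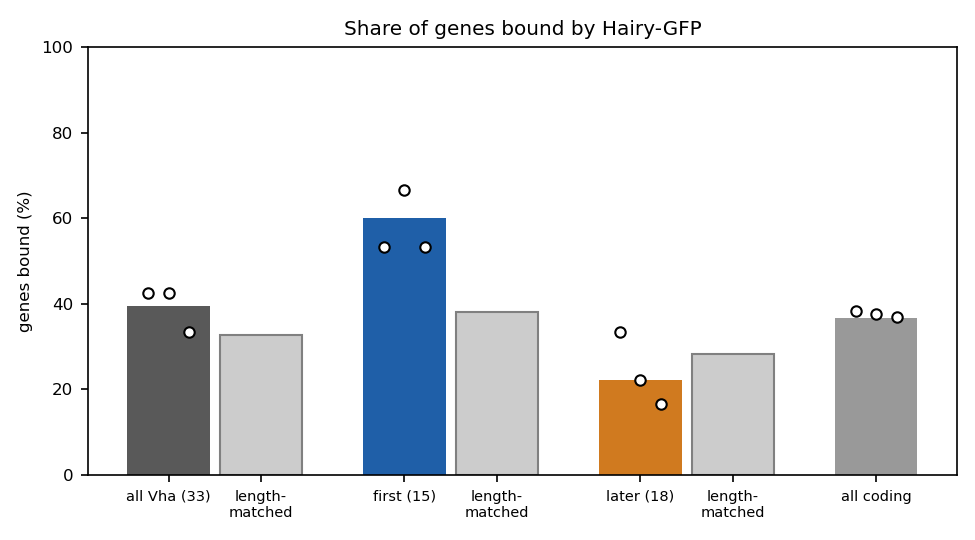
Percentage of genes bound (vertical axis, %) for all Vha genes, first genes, later paralogs and all coding genes. Coloured and dark bars give the reproducible list, pale bars the length-matched coding genes, and white circles the top lists of replicates 1, 2 and 3 from left to right. First genes stand at 60% with replicates from 53.3% to 66.7%, and later paralogs at 22.2% with replicates from 16.7% to 33.3%.

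The gap between first and later genes was smaller under other ways of giving summits to genes. When upstream sequence was left out and the gene body alone was counted, 20% of first genes and 16.7% of later paralogs were bound. With each summit given to the nearest coding start site alone, the shares were 46.7% and 27.8%. Changes of another kind gave a larger gap: 45.6 points with the pooled list, and 43.2 points with VhaAC45RP counted as a later paralog. Numbered families elsewhere in the genome served as a further comparison, chosen after the Vha values were seen. In 24 other families with a gene numbered 1 and higher numbers, 11 of 24 first genes were bound, or 45.8%, and 12 of 39 later ones, or 30.8%, with length-matched shares of 43.6% and 37.9%.

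Within the V1 sector, 6 of 13 genes were bound (46.2%, length-matched genes 36.7%), and within Vo 6 of 18 (33.3%, length-matched genes 29.98%). At least 1 gene was bound for 9 of the 13 subunits, 5 of 8 in V1 and 4 of 5 in Vo. This count has no background share and depends on how many genes encode a subunit. Every Vo subunit has several genes, and 5 V1 subunits have 1. The subunits with no bound gene were E, F and H of V1 and d of Vo. Of the 5 genes that are alone in encoding their subunit, Vha13, Vha44 and Vha55 were bound, and Vha26 and VhaSFD were not.

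**Figure D2:**
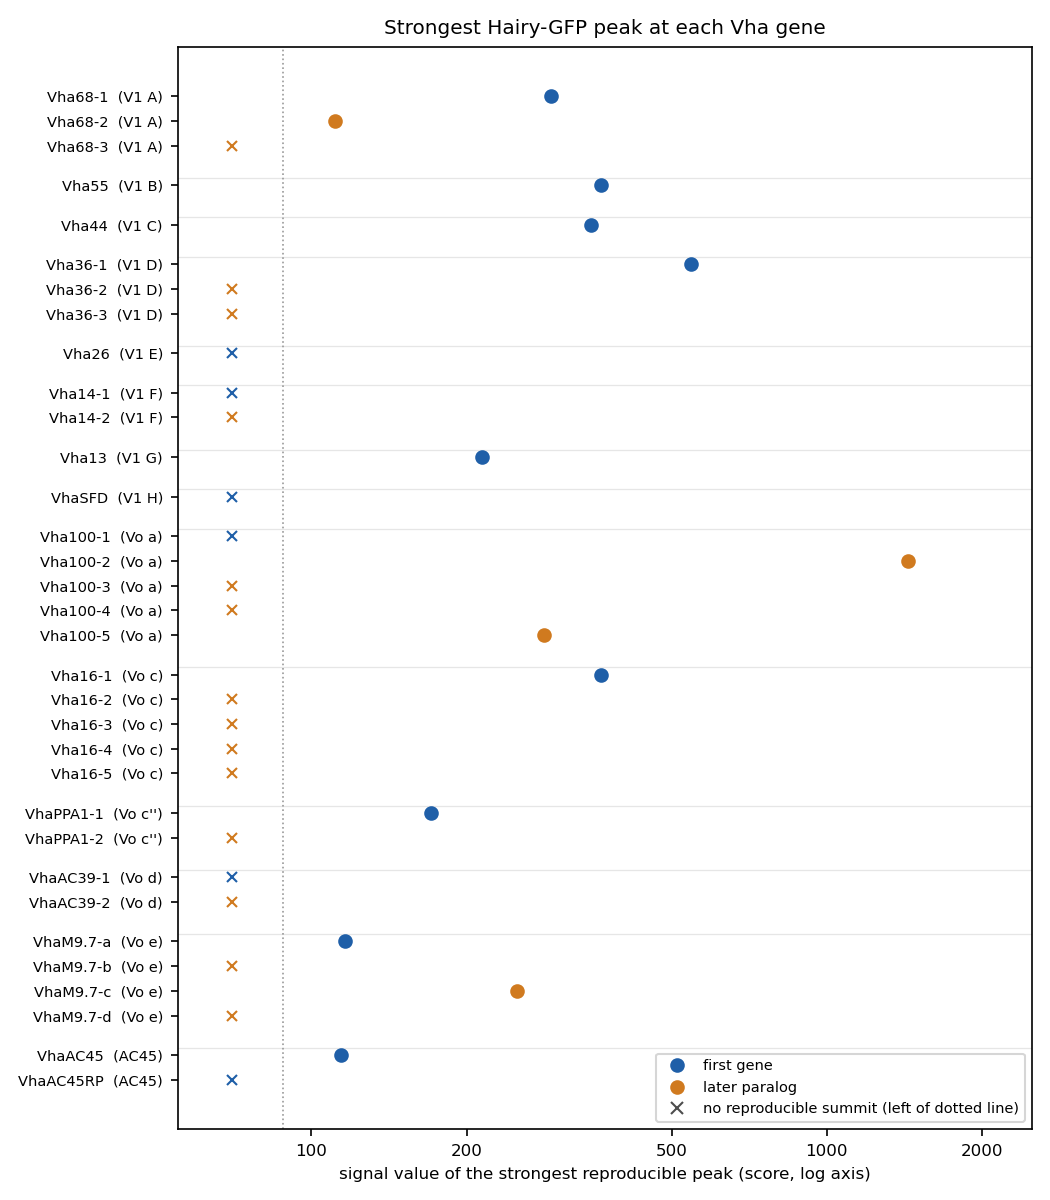
Signal value of the strongest reproducible peak at each of the 33 Vha genes (horizontal log axis, authors' score), grouped by subunit, with first genes in blue and later paralogs in orange. Crosses left of the dotted line mark the 20 genes with no reproducible summit and carry no value. Vha100-2 stands apart at 1435.6, and the other 12 bound genes lie between 111 and 546.

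The catalytic A subunit, which hydrolyses ATP, is encoded by Vha68-1 (2L 13000770 to 13004107, minus strand), Vha68-2 (2L 12974322 to 12978607, plus strand) and Vha68-3 (2L 12978786 to 12981293, plus strand). The Vha68-1 summit lay 108 bp upstream of its start site, between it and mTor, the growth regulator kinase gene 373 bp away on the opposite strand, with a signal value of 291 and ranks of 3079, 3727 and 3555 in replicates 1, 2 and 3. Vha68-2 had the weakest peak of any bound member, with a signal value of 111, in its 5' UTR 70 bp past a start site, and ranks of 9689, 11494 and 12541. Only replicate 1 held that peak in its top list. Vha68-3 begins 178 bp past the end of Vha68-2 and had no summit in any replicate's top list or in the pooled list. Its 120 bases upstream, shown above, had a GC content of 19.2%, against 44.2% in those of Vha68-1.

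Subunits B and C, each encoded by a single gene, were bound at the start site. Vha55 encodes B, the nucleotide-binding partner of A (3R 12623762 to 12627829, minus strand), and its summit lay in the 5' UTR 6 bp past the start site, with a signal value of 364. Its ranks were 1983, 2145 and 6212, so replicate 3 placed it lower than the others. The printed class C site of Vha55 begins 28 bp from that summit, and its DRE 195 bp from it. Vha44 encodes C, a part of the stator (2R 16324813 to 16336637, minus strand). Its summit lay 80 bp upstream of its start site and 43 bp from the start site of Hmgs, which encodes HMG-CoA synthase, with a signal value of 349 and ranks of 1694, 4209 and 2709.

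The rotor stalk subunit D had a bound first gene and unbound paralogs. Vha36-1 (2R 15541435 to 15542498, plus strand) held the strongest peak among first genes, with a signal value of 546 and ranks of 1223, 1254 and 1637. The summit lay 55 bp upstream of Vha36-1 and 17 bp from CG8187, so the nearer start site is the neighbour's. Vha36-2 and Vha36-3 had no summit in their windows in any top list, and the nearest reproducible summits lay 755 bp past the end of Vha36-2 and 1707 bp upstream of Vha36-3. Subunit F, the other rotor stalk subunit, had no bound gene. The nearest summit lay 200 bp past the end of Vha14-1 and 8788 bp upstream of Vha14-2.

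Of the stator subunits E and G and the regulatory subunit H, only the G gene was bound. Vha13, for G (3R 19643018 to 19644386, minus strand), had a summit in its 5' UTR 13 bp past the start site (signal value 214, ranks 5398, 6301 and 3244). Another summit in its 3' UTR, 408 bp from the start site of subdued, was in the lists of replicates 1 and 2 and not of replicate 3. The Vha26 gene, for E, had summits 94 and 109 bp upstream of its start site in the top lists of replicates 1 and 2, at ranks 9863 and 8014. Replicate 3 and the pooled list had none. VhaSFD, for H, had no summit in the full list of 30000 peaks of any replicate, nor in the pooled list.

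The strongest peak of the family was at Vha100-2, which encodes a form of the a subunit, the part of Vo through which protons reach and leave the ring. This later paralog (3R 18390323 to 18399169, minus strand) had a signal value of 1435.6, rank 163 of 10233, and ranks of 159, 179 and 126 in the replicates. Its summit lay in an intron, 311 bp upstream of the inner start site, and 244 bp past the start site of Vti1b, a SNARE gene, in whose 5' UTR it falls. A weaker intronic summit 3381 bp past the inner start site (signal value 174) ranked 7733, 5898 and 6718. Its neighbour Vha100-4, 517 bp beyond its end, and Vha100-3 had no summit in any top list.

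Vha100-5 (2L 11738948 to 11744524, plus strand), the other bound gene for subunit a, had an intronic summit 1866 bp past its start site with a signal value of 283 and ranks of 3282, 3812 and 3277. Its promoter summit, 70 bp upstream, had a signal value of 118 and ranks of 15971, 9575 and 3219, a spread over replicates wider than at any other bound member's promoter. Vha100-1, known for its role at synapses, had no reproducible or pooled summit. Replicate 2 alone had a summit 60 bp upstream of it, at rank 5162.

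**Figure D3:**
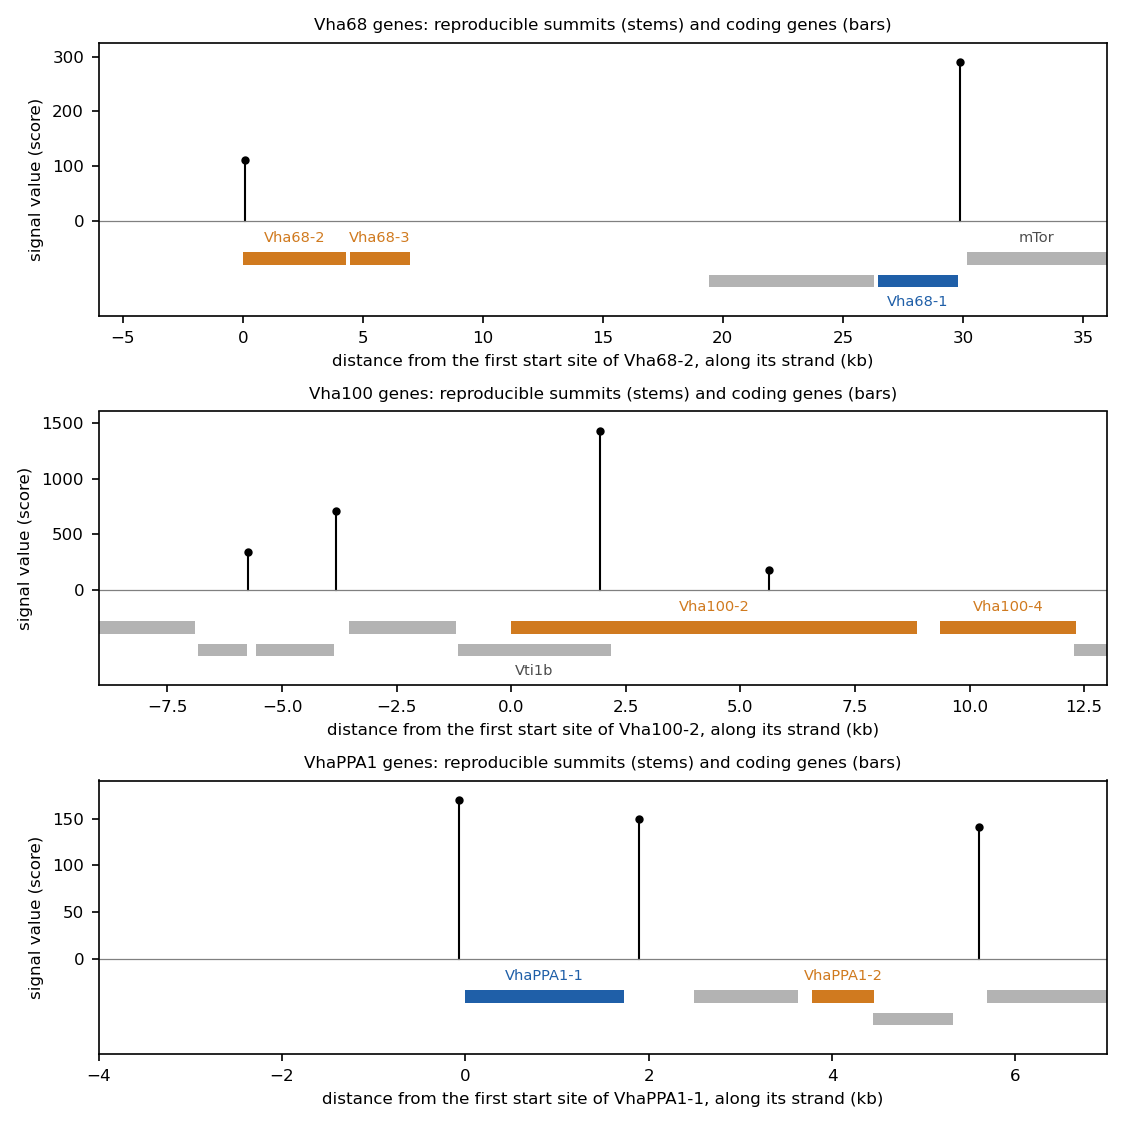
Reproducible summits (stems, height in signal value on the vertical axis) and coding genes (bars) at 3 of the 4 loci where paralogs lie near each other. The horizontal axis is distance in kb from the first start site of Vha68-2, Vha100-2 or VhaPPA1-1. Blue bars are first genes, orange bars later paralogs and grey bars other genes, with genes on the strand of the anchor in the upper row. At each of these 3 a bound gene lies near an unbound later paralog, Vha68-3, Vha100-4 or VhaPPA1-2. The coding gene RpS5b lies between VhaPPA1-1 and VhaPPA1-2. The locus not drawn holds Vha16-3 and Vha16-2, 985 bp apart and both unbound.

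The proteolipid ring, which turns as protons pass, had reproducible summits at its first genes alone. Vha16-1, for subunit c (2R 6625242 to 6633090, minus strand), held 5 reproducible summits, the most of any Vha gene. The strongest, in an intron 1600 bp past a start site, had a signal value of 364 and ranks of 3908, 2042 and 3669. An intronic summit 3981 bp past a start site followed with a signal value of 361 and ranks of 2075, 2728 and 1905. Summits 54 and 139 bp upstream of start sites had signal values of 209 and 179, and all 5 were in 3 of 3 top lists. The strongest summit and a neighbouring one with a signal value of 199 fall in the same peak of replicates 1 and 2. None of Vha16-2, Vha16-3, Vha16-4 and Vha16-5 had a reproducible summit. These are short genes, from 567 to 725 bp, a length class in which 12.3% of coding genes were bound.

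Vha16-5 differed between the lists. Replicates 1 and 2 had summits 277 and 284 bp upstream of its start site, at ranks 2635 and 2526. Replicate 3 had none there, and the pooled list had no peak there either. Its single pooled summit in this window had a signal value of 41.5, and the lowest in the reproducible list was 105. Across the top lists of replicates 1, 2 and 3, 3.97%, 3.96% and 5.54% of summits lay in no pooled peak, and the cause was not tested.

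For c'', VhaPPA1-1 (3R 14902330 to 14904061, minus strand) had a summit 68 bp upstream of its start site with a signal value of 170.4 and ranks of 8147, 5589 and 6336. VhaPPA1-2, 2052 bp beyond its end with the coding gene RpS5b between them, was not bound. The nearest summit upstream of VhaPPA1-2 was 1887 bp away. Neither gene for subunit d was bound. The strongest pooled peak of VhaAC39-1 had a signal value of 58.1, and the nearest summit to VhaAC39-2 lay 129 bp past its end. The small e subunit had a later paralog with a stronger peak than its first gene. VhaM9.7-c (3L 4186018 to 4186865, minus strand) had a summit 35 bp upstream with a signal value of 251 and ranks of 2899, 4536 and 5756. That summit also falls in introns of Teh2 and CG18675, though the nearest start site is that of VhaM9.7-c. VhaM9.7-a (3L 4262705 to 4263464, plus strand) had a signal value of 116 and ranks of 10405, 8711 and 13069, with the start site of CG11586 nearer to the summit (102 bp) than its own (133 bp). VhaM9.7-d had no summit in any top list. VhaM9.7-b had none in the reproducible list, and 1 in the top list of replicate 1 alone, 358 bp upstream at rank 4478.

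The accessory subunit AC45, a glycoprotein that accompanies the pump in secretory vesicles, had a weak peak at VhaAC45 (2R 9207561 to 9209774, plus strand). Its summit lay 85 bp upstream with a signal value of 114 and ranks of 10779, 11716 and 7244. VhaAC45RP, named for its similarity to it, was not bound, and the nearest summit lay 342 bp past its end. Outside the genes, every summit that made a member bound lay within 139 bp of the gene start, and the nearest upstream summit of an unbound member was 1707 bp away, so any upstream limit between these distances gives the same 13 genes.

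**Figure D4:**
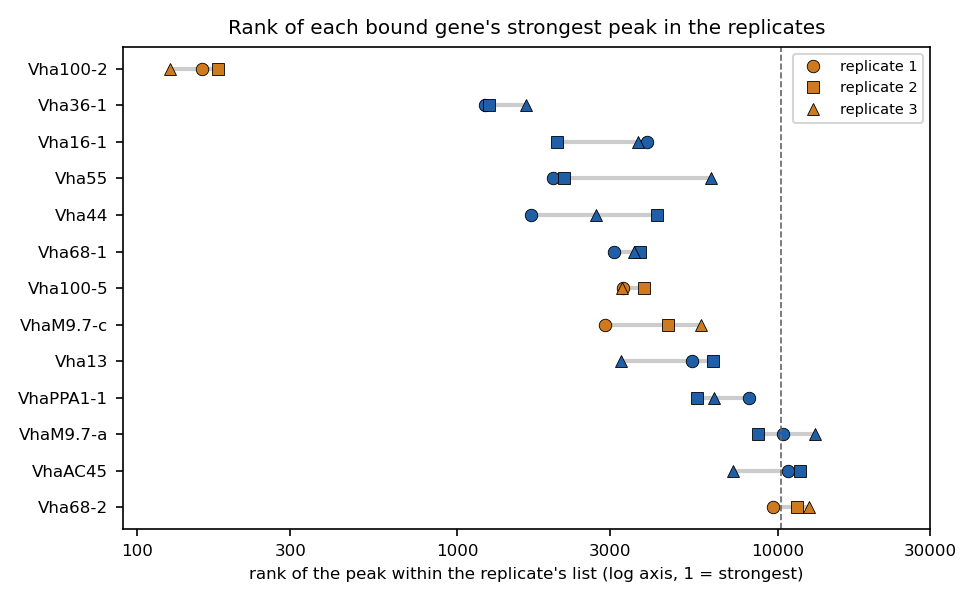
Rank of each bound gene's strongest peak in the lists of replicates 1 (circle), 2 (square) and 3 (triangle), on a log axis where 1 is the strongest peak, with first genes in blue and later paralogs in orange. The dashed line marks rank 10233, the length of the top lists. Vha100-2 stays between 126 and 179, and the peaks of VhaM9.7-a, VhaAC45 and Vha68-2 cross the line.

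Member peaks were of ordinary strength. The median signal value of the strongest peak was 283 over the 13 bound Vha genes and 281 over the 5120 bound coding genes. For 9 of the 13 it stood above the list's median of 202, as it did for 3455 of the 5120. Of 20 member summits, 14 lay within 500 bp of a start site of the same gene, 9 lay outside the gene, 7 in introns, 3 in 5' UTRs, 1 in a 3' UTR and none in a coding exon. For 6 of 20 the nearest start site belonged to another gene, which was so for the strongest peak of Vha100-2, Vha36-1, Vha44 and VhaM9.7-a. The placement of all reproducible summits is not given, so these counts have no background and are not a trait of Vha genes. In 3 of 3 top lists were 15 of 20 member summits, or 75.0%, against 70.4% of all reproducible summits. Of the bound genes, 10 were bound in every top list, and Vha68-2, VhaAC45 and VhaM9.7-a each in 1. Of the 20 unbound genes, 16 had no summit in any top list, and Vha16-5, Vha26, Vha100-1 and VhaM9.7-b had at least 1. Such counts are not given for all bound and unbound coding genes, so those of the Vha genes have no background.

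E-boxes of the Hairy and Mitf kinds were found at few members, and no test was made of these counts. Within 100 bp of the 20 member summits, CACGTG was found at 2 (10%), those of Vha44 and Vha55, against 2.11% of all reproducible summit windows. CACGCG was found at 2 (10%), at Vha16-1 and Vha55, against 6.24% of all, and in 2 of 33 Vha promoters (6.06%) against 6.12% of all. CAGCTG was found at 5 (25%), at Vha13, Vha16-1, Vha36-1, Vha44 and VhaAC45, against 9.47% of all. TCACGTGA was found at 1 (5%), the summit of Vha44, against 0.127% of all. Ohler 1 was found at 1 (5%), at Vha16-1, against 2.12% of all, and the DRE at none, against 3.00% of all. In the 300 bases from 250 before to 50 after the outermost start site, CACGTG lay in 3 of 33 Vha promoters (9.09%), those of Vha44, VhaAC45RP and VhaM9.7-d, against 4.20% of all 13945 coding promoters, and only Vha44 of these was bound. The longer TCACGTGA lay in 1 of 33 Vha promoters (3.03%), that of Vha44, against 0.172% of all promoters. Vha68-2 has a TCACGTGA 99 bp before an inner start site, shown above, 869 bp from the nearest reproducible summit.

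ACACTG was in 9 of 33 Vha promoters (27.3%) against 18.9% of all promoters, in 6 of the 13 bound genes and 3 of the 20 unbound. For no motif was the share of all promoters split by binding. The bound and unbound counts therefore have no background, and a link to binding was not tested. ACACTG lay within 100 bp of 5 of 20 member summits (25%), against 16.6% of all summit windows. Among them were Vha13 and VhaM9.7-c, whose 5'-most matches begin 79 and 27 bp from the summit. The other printed match of VhaM9.7-c lies nearer to its summit. Ohler 1 was in 4 Vha promoters (12.1%) against 7.70% of all, in 1 bound gene, Vha68-2, and 3 unbound ones, Vha26, Vha100-1 and Vha14-1. At Vha26 and Vha100-1 the printed match begins 2 bases before the start site. The DRE was in 2 (6.06%) against 9.36%, those of the bound Vha55 and the unbound VhaSFD, and CAGCTG in 8 (24.2%) against 17.7%. A match is a description of these windows only.

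Regulators of the pump and lysosomal genes, were described from a list of 29. In this list 12 genes were bound (41.4%), against 36.7% of all coding genes and 47.1% of those matched in length. Each replicate's top list gave 51.7%, against 38.3%, 37.7% and 36.8% of all coding genes in the lists of replicates 1, 2 and 3. No length-matched share is given for the top lists, so that gap is not corrected for length. Mitf was not bound. The strongest peaks were at mtd, a TLDc-domain gene (signal value 575, 16 summits), spin, a lysosomal transporter gene (525), Ppt1, for a palmitoyl-protein thioesterase (347), the cathepsin genes CtsL1 (282) and CtsB (261), and Cln7 (249). Of the pump's own regulators, Rbcn-3B had a weak summit (107) 793 bp from its start site, and Rbcn-3A had none.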

How the data were processed

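Anti-GFP ChIP-seq peaks of 3 replicates of whole larvae were analysed on build dm6, whose Ensembl release 115 annotation and RefSeq genome share that assembly. The authors deposited peak lists whose signal value is a score without a stated scale. Per notes among the deposited files, each replicate's peaks were called against a control, and the reproducible list was made from the 3 replicate lists and a pooled list. Aligner, peak caller and thresholds: not given in the sources used here. Peak lists hold no read totals, so depth is unknown. All 10233 reproducible peaks recur identically in the pooled list, so recovery in the replicates is not independent evidence.

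Summits, read as the peak start plus the deposited offset, were assigned to genes with Python 3.11.15, and figures were drawn with matplotlib 3.10.9. Gene assignment was checked on planted summits. Length-matched shares are the mean, over the genes described, of the share bound in each gene's length decile of coding genes, Vha genes left out; nothing was drawn at random. Motifs were searched on both strands. Every Vha gene was named, with the 6 related genes of highest signal value. Members, lists and rules were chosen with earlier results of these data known. Protein sequences and dm3 lists were not used here.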

Additional observations from a re-analysis of the deposited data

How the results depend on the processing

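First genes had the higher share bound under each alternative for which first and later genes were counted, which leaves out the full replicate lists, the strongest 5000 peaks and other promoter distances. A wider window, reaching 5 kb upstream and 1 kb beyond the end, gave 22 bound Vha genes, 80% of first genes and 55.6% of later paralogs (24.4 points apart), with 49.2% of length-matched genes. The gene body alone gave 6 genes, 20% of first genes, 3.33 points and 14.7% of matched genes. The 7 genes lost there have their summits 35 to 133 bp upstream. Nearest start sites alone gave 46.7% of first genes, 18.9 points and 30.3% of matched genes. Peaks above the median signal value gave 40% of first genes, 23.3 points, 21.4% of matched genes and 8 genes bound at a promoter. No promoter share of coding genes is given for those peaks. Peaks in all 3 top lists gave 46.7% of first genes and 26.2% of matched genes. Leaving out a replicate kept the reproducible peaks found in both other top lists, and no peaks were called again. Each replicate left out in turn gave 46.7% of first genes every time and 27.3% to 28.8% of matched genes. In each case Vha68-2, VhaAC45 and VhaM9.7-a were lost, so 10 genes stayed bound. The peak of each of these 3 is in 1 top list only, so their loss was fixed by the rule. Any overlapping base gave 34.1% of matched genes. The pooled list gave 73.3% of first genes, full replicate lists a mean of 53.5% of Vha genes, and the strongest 5000 peaks 26.3%. Lists of other lengths change the share of all coding genes bound as well. That share is not given for these lists, so these values have no background. Matching to the 100 genes nearest in length gave 33.5%, to length quintiles 33.6%, and to length decile with a divergent neighbour, an alternative added after seeing the data, 34.0%. The dm3 alternative was not run, because no annotation of that build was used. Neither depth nor unfused chromatin could be examined, and 33 genes of shared descent allow only coarse shares.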
